A study of Mus musculus with 12 samples.

Results

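The genes described here are 31 identity genes of macrophages and of microglia, the macrophages of the brain, chosen by name and read from arrays of enteric nervous system (ENS) primary cultures of the mouse. Each gene was taken as the array cluster with its symbol and the highest mean. This gave 30 genes of 19505 with a symbol on the arrays. Cd68, a lysosomal glycoprotein gene of macrophages, has no cluster under its symbol in the platform table and was not analysed here. The genes fall into 19 resting-state genes, which mark macrophages at rest in brain or other tissue, and 11 general macrophage genes, which macrophages carry at rest and when activated. Within the resting-state genes, 13 are of the microglia type and 6 of the resident macrophage type.

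The study asked how 6-mercaptopurine (6-MP), an immunosuppressive purine analogue, alters the response of these cultures to lipopolysaccharide (LPS), the outer membrane component of Gram-negative bacteria. There were 4 groups of 3 Clariom S arrays: LPS + 6-MP (50 µM 6-MP for 16 h and then 10 ng/ml LPS for another 6 h), LPS alone, 6-MP alone, and untreated control. All 4 groups came from guts of e14.5 embryos as labelled, of a mouse line with a floxed Sox10 allele, and were kept in serum-free medium with N2 supplement after the first day. The cultures were not sorted: the methods describe a mixed population with neurons and glia, and macrophages are a part of it whose share is not known. The replicates are independent experiments per the methods. Values are log2 intensities as the authors deposited them. In such bulk samples a lower value can come from fewer macrophages or from less RNA per macrophage, and these cannot be told apart.

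Macrophages of the gut wall and microglia arise from embryonic precursors, and the transcription factor PU.1, encoded by Spi1, is needed for both. At rest they carry receptors that sense their neighbours, such as the fractalkine receptor, the purinergic receptors and scavenger receptors. Bacterial products that signal through Toll-like receptors turn on cytokine genes, and many receptors of the resting state are known to go down in activated microglia.

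The values on these arrays have array medians of 7.41 to 7.53. Clusters of odorant, pheromone and taste receptors, most of them silent outside sensory tissue, gave a measure of the background: 90% of 1452 such clusters had means under 5.78, called the dim level here. Of the 30 genes, 27 had means over all arrays above it. The exceptions were Sall1, a zinc finger transcription factor of microglia, Cd163, the scavenger receptor for haemoglobin with haptoglobin, and Cx3cr1, the fractalkine receptor, whose group means were under the level with LPS and above it without. P2ry13 was also under it in both groups with LPS. So the general macrophage genes were all above the dim level on average, whereas a defining gene of microglia (Sall1) and one of resident macrophages (Cd163) were not. On the second principal component, 4 arrays stood apart, 1 of each group (LPS + 6-MP replicate 1, LPS replicate 2, 6-MP replicate 1 and control replicate 2), with scores of 33.2 to 48.2 against -32.5 to -8.16 in the other 8. In each of these 4 arrays, 9 of the 30 genes were lower than the mean of the other arrays of the same group, though not always lower than each of them. Among the 9 were all C1q genes, Trem2, Tyrobp and Itgam. Sall1 was higher than that mean every time. Control replicate 1 was the highest control array for 21 of the 30 genes. These counts were not made over all clusters, so it is not known whether they are particular to the 30 genes. The third principal component split the other 8 arrays by sign, with 1 array of each group on each side. Scores were 18.4 to 24.4 for LPS + 6-MP replicate 2, LPS replicate 1, 6-MP replicate 3 and control replicate 3. They were -28.6 to -17.8 for LPS + 6-MP replicate 3, LPS replicate 3, 6-MP replicate 2 and control replicate 1. Whether such sets are the independent experiments was not tested.

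Of the 30 genes, 5 fell with LPS alone and 1 rose, at an adjusted p under 0.05 and a change of at least 2-fold in either direction (limma, adjusted over all 22206 clusters). All 5 that fell are resting-state genes: Cx3cr1, Gpr65, Cd84, Mef2c and Pld4. That is 5 of 30 against 0.0946% of all clusters called lower. The gene that rose was Spi1, 1 of 30 against 1.51% of all clusters called higher. With 6-MP present, LPS lowered 4 of the 30 (Gpr65, Mef2c, Pld4 and Inpp5d), against 0.131% of all clusters, and raised Spi1 again, 1 of 30 against 1.31%. With both LPS effects averaged, 6 arrays with LPS against 6 without, 10 of the 30 were lower, 8 of them resting-state genes (the 6 named and P2ry12 and P2ry13) and 2 general macrophage genes (C1qa and Trem2), against 0.221% of all clusters. Spi1 was the 1 gene higher, against 1.86%. The averaged comparison uses the same arrays as the single ones. Since the genes and their classes were chosen with earlier results of these data known, the shares describe these genes and are not a test of them.

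Gpr65, Pld4 and Mef2c are the 3 genes that fell with LPS both without and with 6-MP. Their sequences of 250 bases before the start site are shown because these genes moved together. They are from a set of RefSeq promoters in build GRCm38.p6. The set used here held 22 of the 30 genes and lacked Spi1 and C1qa, among others. The sequences are read 5′ to 3′ along the gene (Gpr65 chr12:98268385-98268634, plus strand; Pld4 chr12:112760405-112760654, plus strand; Mef2c chr13:83503784-83504033, plus strand, the most upstream of its 3 start sites there). Capitals mark matches to 2 motifs on either strand.
Gpr65: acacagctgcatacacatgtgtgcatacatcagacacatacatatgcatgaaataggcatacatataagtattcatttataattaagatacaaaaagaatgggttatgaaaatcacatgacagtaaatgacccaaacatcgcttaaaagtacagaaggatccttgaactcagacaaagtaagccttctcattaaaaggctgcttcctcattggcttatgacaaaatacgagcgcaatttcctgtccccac
Pld4: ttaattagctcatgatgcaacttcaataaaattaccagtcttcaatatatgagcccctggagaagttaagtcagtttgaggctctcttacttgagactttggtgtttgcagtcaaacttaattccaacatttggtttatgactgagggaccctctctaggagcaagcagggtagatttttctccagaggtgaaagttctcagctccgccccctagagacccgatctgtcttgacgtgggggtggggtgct
Mef2c: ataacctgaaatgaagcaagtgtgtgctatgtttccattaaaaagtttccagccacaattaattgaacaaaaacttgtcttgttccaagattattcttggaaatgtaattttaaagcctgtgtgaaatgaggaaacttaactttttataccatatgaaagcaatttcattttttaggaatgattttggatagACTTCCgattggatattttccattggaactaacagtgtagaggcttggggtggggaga

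The motifs searched were TGANTCA, bound by AP-1, and GGAAGT, a core of ETS factors such as PU.1. In these windows the single match was an ETS core in Mef2c, which starts 58 bases before the start site. Mef2c also had an AP-1 motif before another of its 3 start sites, which is not shown. The 22 genes have 29 promoters in the table, of which 12 (41.4%) held an ETS core and 4 (13.8%) an AP-1 motif. Of all 32851 promoters, 19.7% held the ETS core and 6.75% the AP-1 motif. A match is a run of letters and was not tested as a binding site.

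**Figure D1:**
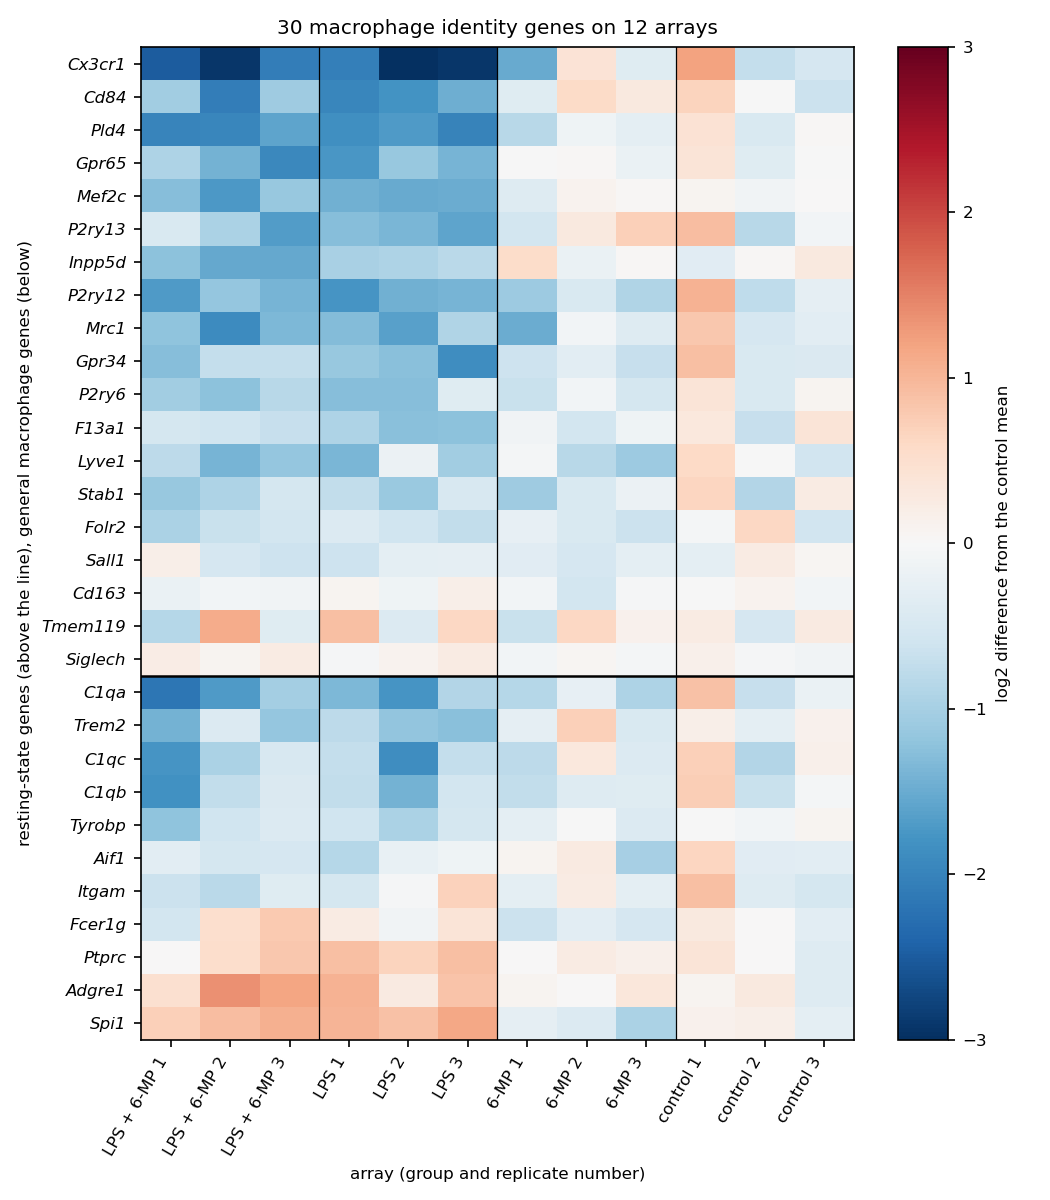
Log2 difference of each of the 30 genes from its own control mean on each of the 12 arrays (columns, grouped as LPS + 6-MP, LPS, 6-MP and control, with the replicate number), resting-state genes above the line and general macrophage genes below. Blue fills most resting-state rows on the 6 arrays with LPS, while Spi1, Adgre1 and Ptprc at the bottom are mostly red there.

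Among the surface receptors of the microglia type, Cx3cr1 binds the chemokine fractalkine. Its log2 values were 4.44, 4.01 and 4.85 with LPS + 6-MP and 4.87, 3.71 and 4.0 with LPS, against 5.41, 7.33 and 6.56 with 6-MP and 8.14, 6.22 and 6.41 in control. All 6 arrays with LPS lay under the dim level and under every array without LPS, of which 6-MP replicate 1 was also dim. With LPS alone Cx3cr1 fell by 2.73 ± 0.55 on the log2 scale (SE, adjusted p = 0.0213, limma). Since the LPS values are dim, this was at least 2.22-fold lower with values under the level raised to it. With 6-MP present the change was -2.0 ± 0.55 (adjusted p = 0.124, limma), which did not pass, at least 1.72-fold with the same floor. The call for LPS alone was lost without control replicate 1 (adjusted p = 0.0824), LPS replicate 2 (0.0952) or LPS replicate 3 (0.0981), whereas the averaged change of -2.37 ± 0.39 (adjusted p = 0.00289) passed with any array left out. With the same floor the averaged change was at least 1.95-fold, which does not reach the 2-fold limit.

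Gpr65, a receptor that senses protons outside the cell, had values of 6.59, 6.09 and 5.57 with LPS + 6-MP and 5.78, 6.39 and 6.11 with LPS. It had 7.51, 7.55 and 7.31 with 6-MP and 7.89, 7.15 and 7.5 in control. No array with LPS reached the lowest array without it. Gpr65 was 2.68-fold lower with LPS than in control (-1.42 ± 0.27, adjusted p = 0.0149, limma) and 2.59-fold lower with LPS + 6-MP than with 6-MP (-1.37 ± 0.27, adjusted p = 0.0212). Leaving out 1 array ended the first call for LPS replicates 1 (adjusted p = 0.0821) and 3 (0.0605) and control replicates 1 (0.0828) and 3 (0.0633). It ended the second for any 6-MP array (0.0684, 0.0856 and 0.0646 without replicates 1, 2 and 3) and for LPS + 6-MP replicates 2 (0.074) and 3 (0.0907). Fitted to those 2 groups alone, the second had an adjusted p of 0.0803.

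Cd84, an adhesion receptor of leukocytes of the SLAM family, had values of 8.57, 7.52 and 8.53 with LPS + 6-MP and 7.66, 7.82 and 8.15 with LPS, against 9.25, 10.18 and 9.90 with 6-MP and 10.27, 9.59 and 8.96 in control. The 6 arrays with LPS were again below the other 6. With LPS alone it fell by 1.73 ± 0.37 (3.33-fold, adjusted p = 0.0305, limma), and under 6-MP the change was -1.57 ± 0.37 (adjusted p = 0.0595), a difference of 2.96-fold that did not pass. The first call is fragile: it was lost without LPS replicate 1 (adjusted p = 0.138), 2 (0.102) or 3 (0.0671), without control replicate 1 (0.146) or 2 (0.0937), and without the 4 arrays that stand apart (0.127). With the replicate number as a block its adjusted p was 0.0713. The averaged change of -1.65 ± 0.26 (adjusted p = 0.00219) passed in every alternative tried.

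The receptors for extracellular nucleotides behaved less uniformly. P2ry12, the ADP receptor that steers microglial processes, had values of 5.88, 6.43 and 6.20 with LPS + 6-MP and 5.83, 6.14 and 6.20 with LPS. It had 6.50, 7.13 and 6.69 with 6-MP, and 8.63, 6.83 and 7.31 in control. No array with LPS overlapped those without it, and control replicate 1 was the highest of all. The change was -1.53 ± 0.37 for LPS alone (adjusted p = 0.0662, limma) and -0.60 ± 0.37 under 6-MP (adjusted p = 0.604). Averaged, P2ry12 was 2.10-fold lower (-1.07 ± 0.26, adjusted p = 0.0399). That call held without 6-MP replicate 1 or control replicate 2 and was lost without any of the other 10 arrays, for instance without control replicate 1, where it was -0.81 and under 2-fold. It was also lost with arrays centred on their medians (adjusted p = 0.053) and with the replicate number as a block (0.0809).

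P2ry13, a second ADP receptor, whose gene lies beside P2ry12 on chromosome 3, had values of 6.10, 5.61 and 4.88 with LPS + 6-MP and 5.28, 5.18 and 4.97 with LPS, against 6.00, 6.84 and 7.26 with 6-MP and 7.48, 5.72 and 6.46 in control. The LPS + 6-MP arrays overlapped those with 6-MP. Its averaged change was -1.29 ± 0.31 (adjusted p = 0.0361, limma), at least 1.75-fold with dim values raised, and the call was lost without any of 9 arrays (adjusted p up to 0.0924), the exceptions being control replicate 2, 6-MP replicate 1 and LPS + 6-MP replicate 1. It was also lost with the replicate number as a block (adjusted p = 0.0634). P2ry6, a UDP receptor of phagocytosis, had -0.97 ± 0.29 with LPS (adjusted p = 0.183) and -0.60 ± 0.29 under 6-MP (adjusted p = 0.477). Gpr34, the lysophosphatidylserine receptor, was lower on all 6 arrays with LPS (6.01 to 7.16) than on the other 6 (7.20 to 8.78). Its change was -1.42 ± 0.34 with LPS (adjusted p = 0.062) and -0.36 ± 0.34 under 6-MP (adjusted p = 0.772), so neither passed.

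Mef2c, a transcription factor of microglia that muscle and neurons also use, gave the most even values of the resting-state genes that fell. They were 8.82, 8.36 and 8.95 with LPS + 6-MP and 8.65, 8.57 and 8.60 with LPS, against 9.69, 10.20 and 10.12 with 6-MP and 10.17, 9.98 and 10.11 in control. The highest array with LPS (8.95) was below the lowest without it (9.69). Mef2c was 2.79-fold lower with LPS (-1.48 ± 0.19, adjusted p = 0.00109, limma) and 2.45-fold lower with LPS under 6-MP (-1.30 ± 0.19, adjusted p = 0.00369). Neither call was lost with any array left out. The second missed the threshold in a fit to its 2 groups alone (adjusted p = 0.0591).

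Pld4, an endolysosomal exonuclease that degrades single-stranded nucleic acids, had values of 6.79, 6.83 and 7.19 with LPS + 6-MP and 6.93, 7.09 and 6.77 with LPS, against 7.94, 8.65 and 8.48 with 6-MP and 9.20, 8.32 and 8.81 in control. Again the groups did not overlap. It fell 3.61-fold with LPS (-1.85 ± 0.25, adjusted p = 0.00133, limma) and 2.67-fold under 6-MP (-1.42 ± 0.25, adjusted p = 0.0108). The first call held with any array left out. The second was lost without 6-MP replicates 2 (adjusted p = 0.0592) or 3 (0.0611) or LPS + 6-MP replicate 2 (0.051).

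Inpp5d, a lipid phosphatase that restrains phosphoinositide 3-kinase signals in blood cells, had 6.40, 6.11 and 6.09 with LPS + 6-MP and 6.65, 6.71 and 6.83 with LPS. It had 8.19, 7.44 and 7.67 with 6-MP and 7.29, 7.68 and 7.94 in control. All 6 arrays with LPS were below the others, and the LPS + 6-MP arrays were below those with LPS alone. Under 6-MP it fell 2.96-fold (-1.56 ± 0.22, adjusted p = 0.00253, limma), with any array left out as well. With LPS alone the change was -0.90 ± 0.22 (adjusted p = 0.0752). The difference between these changes was -0.66 ± 0.32 (interaction, adjusted p = 1), so they were not shown to differ.

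The remaining genes of the microglia type passed no test. Tmem119, a membrane protein used as a microglia marker, ranged from 8.20 to 10.16 on the arrays with LPS and from 8.39 to 9.69 on those without. It was among the genes that were lower in all 4 arrays that stand apart, with a mean difference of -1.06. Its change was 0.37 ± 0.50 with LPS (adjusted p = 0.928) and -0.07 ± 0.50 under 6-MP (adjusted p = 0.979). Which cells of the mixed culture carry Tmem119 was not tested. Siglech, a sialic acid-binding lectin of microglia and plasmacytoid dendritic cells, stayed between 6.59 and 6.95 on all 12 arrays. The dim Sall1 had -0.39 ± 0.22 with LPS (adjusted p = 0.705) and 0.07 ± 0.22 under 6-MP (adjusted p = 0.952).

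**Figure D2:**
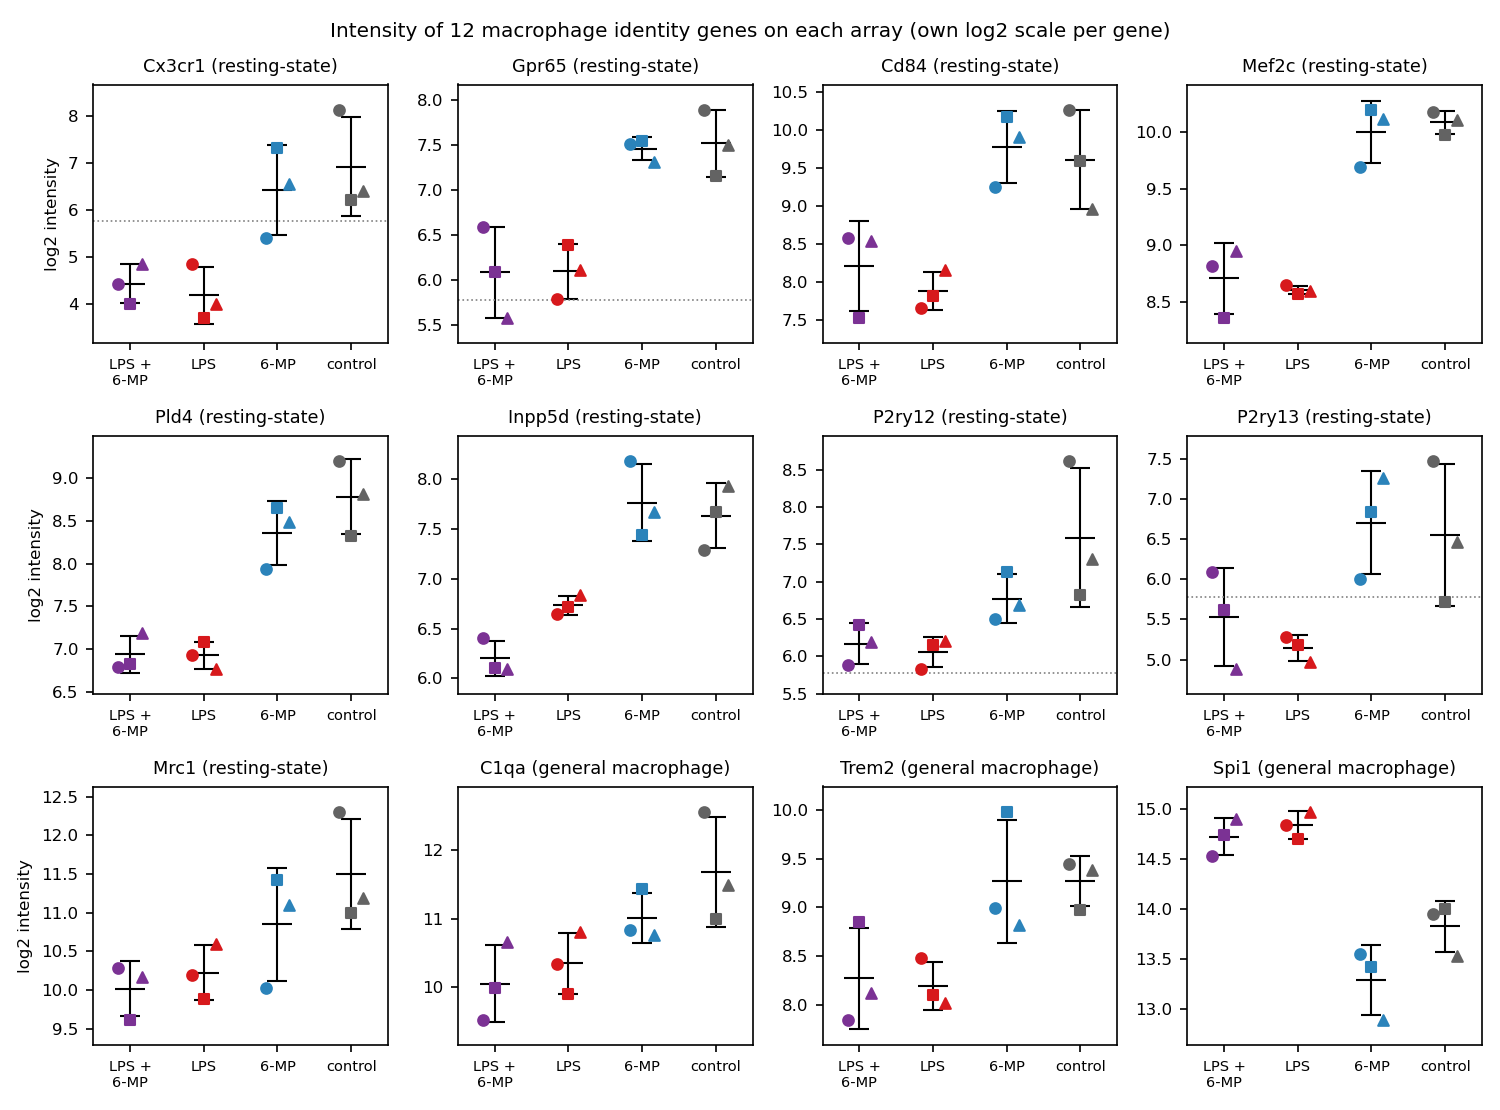
Log2 intensity of 12 of the genes on every array, with groups from left to right LPS + 6-MP, LPS, 6-MP and control; circle, square and triangle are replicates 1, 2 and 3, bars the mean ± SD of 3 arrays, and the dotted line the dim level of 5.78 where it is in range. Cx3cr1, Gpr65, Cd84, Mef2c, Pld4, Inpp5d and P2ry12 are lower on all 6 arrays with LPS, Spi1 is higher on all 6, and the sets overlap for P2ry13, Mrc1, C1qa and Trem2.

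None of the 6 resident macrophage genes passed in either LPS comparison, though 5 of 6 had negative changes in both. Mrc1, the mannose receptor of perivascular and other resident macrophages, had 10.28, 9.61 and 10.16 with LPS + 6-MP and 10.19, 9.88 and 10.59 with LPS, against 10.02, 11.42 and 11.10 with 6-MP and 12.31, 10.996 and 11.19 in control. The LPS arrays were all below control, while 6-MP replicate 1, 1 of the arrays that stand apart, lay among the LPS + 6-MP values. The change was -1.28 ± 0.40 with LPS (adjusted p = 0.221, limma) and -0.83 ± 0.40 under 6-MP (adjusted p = 0.479). Without the 4 arrays that stand apart, the averaged change of Mrc1 was -1.37 and passed (adjusted p = 0.0157). It was -1.05 ± 0.28 (adjusted p = 0.0613) with them.

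F13a1, the A subunit of coagulation factor XIII, had 6.62, 6.55 and 6.45 with LPS + 6-MP, 6.22, 5.89 and 5.93 with LPS, 7.04, 6.60 and 7.03 with 6-MP, and 7.46, 6.45 and 7.53 in control. Its LPS arrays were below all control arrays, and its LPS + 6-MP arrays overlapped those with 6-MP. With LPS alone the change of -1.14 ± 0.26 just missed (adjusted p = 0.052, limma), and it passed without control replicate 2 (-1.49, adjusted p = 0.00237), an array that stands apart. With the replicate number as a block, F13a1 passed as well (adjusted p = 0.0367). Averaged, F13a1 passed the adjusted p (0.0442) but not the fold (-0.74 ± 0.19). Lyve1, a hyaluronan receptor that lymphatic vessels share, had -0.87 ± 0.37 with LPS and -0.44 ± 0.37 under 6-MP. The scavenger receptor Stab1 had -0.77 ± 0.36 with LPS and -0.29 ± 0.36 under 6-MP. The folate receptor Folr2 had -0.58 ± 0.26 with LPS and -0.27 ± 0.26 under 6-MP. The adjusted p of these 3 genes was at least 0.49 in both comparisons. Cd163 stayed under the dim level in all groups (5.01, 5.18, 4.91 and 5.13 on average with LPS + 6-MP, LPS, 6-MP and in control).

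Of the 11 general macrophage genes, 1 rose in both LPS comparisons and 2 were lower in the averaged comparison and in neither single one. Spi1 encodes PU.1, the transcription factor that sets the macrophage lineage. Its values were 14.53, 14.74 and 14.90 with LPS + 6-MP and 14.85, 14.70 and 14.98 with LPS, against 13.55, 13.42 and 12.89 with 6-MP and 13.95, 13.997 and 13.53 in control. Every array with LPS was above every array without it. Spi1 was 2.71-fold higher with LPS + 6-MP than with 6-MP (1.44 ± 0.21, adjusted p = 0.00308, limma), with any array left out as well, and 2.02-fold higher with LPS than in control (1.02 ± 0.21, adjusted p = 0.0268). The second value is at the 2-fold limit. It missed the threshold when LPS replicate 1 (adjusted p = 0.0985), 2 (0.0563) or 3 (0.134) or control replicate 1 (0.0703) or 3 (0.137) was left out, without the 4 arrays that stand apart (0.0549), and with the replicate number as a block (0.0585).

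The C1q genes encode the 3 chains of the first component of complement and lie side by side on chromosome 4. C1qa had 9.52, 9.99 and 10.65 with LPS + 6-MP and 10.34, 9.90 and 10.80 with LPS, against 10.83, 11.43 and 10.76 with 6-MP and 12.56, 10.996 and 11.49 in control. Its LPS arrays were below control and its LPS + 6-MP arrays below 6-MP, but LPS replicate 3 overlapped the 6-MP arrays. The change was -1.33 ± 0.40 with LPS (adjusted p = 0.188, limma) and -0.95 ± 0.40 under 6-MP (adjusted p = 0.393). The averaged change of -1.14 ± 0.28 passed (2.21-fold, adjusted p = 0.0411). It missed with the replicate number as a block (0.0721), with arrays centred on their medians (0.0572), without the 4 arrays that stand apart (0.0554) and when any of 9 arrays was left out, the exceptions being control replicate 2, LPS replicate 3 and LPS + 6-MP replicate 3. C1qb had -0.90 ± 0.40 with LPS and -0.50 ± 0.40 under 6-MP (adjusted p = 0.518 and 0.721). C1qc had -1.09 ± 0.46 with LPS and -0.78 ± 0.46 under 6-MP (adjusted p = 0.491 and 0.595). In each of the 4 arrays that stand apart, all 3 chains were lower than the mean of the other arrays of its group. The mean differences were -0.69 (C1qa), -0.85 (C1qb) and -1.06 (C1qc). For C1qa, 6-MP replicate 1 was still above 6-MP replicate 3.

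Trem2, a lipid receptor of phagocytes, had 7.84, 8.85 and 8.12 with LPS + 6-MP and 8.48, 8.10 and 8.02 with LPS, against 9.0, 9.99 and 8.82 with 6-MP and 9.45, 8.98 and 9.39 in control. LPS + 6-MP replicate 2 reached into the 6-MP values. Its averaged change was -1.04 ± 0.23 (2.05-fold, adjusted p = 0.0231, limma), at the 2-fold limit, and the call was lost without control replicates 1 or 3, 6-MP replicate 2, LPS replicates 2 or 3 or LPS + 6-MP replicates 1 or 3, without the 4 arrays that stand apart (adjusted p = 0.0655) and after quantile normalization (-0.98). Tyrobp, the adaptor through which Trem2 signals, had -0.69 ± 0.22 with LPS and -0.50 ± 0.22 under 6-MP (adjusted p = 0.238 and 0.424).

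Other general genes pointed up or showed little change. Adgre1, the adhesion receptor by which mouse macrophages are commonly stained, had 9.51, 10.40 and 10.23 with LPS + 6-MP and 10.08, 9.30 and 9.89 with LPS, against 9.11, 9.05 and 9.37 with 6-MP and 9.12, 9.34 and 8.64 in control. Only LPS replicate 2 reached down into the values without LPS. The averaged change of Adgre1 was 0.80 ± 0.20 (adjusted p = 0.0411, limma) and under 2-fold, and without the 4 arrays that stand apart it was 1.1 (adjusted p = 0.00492), past both limits. Ptprc, the leukocyte common antigen, had 0.82 ± 0.23 with LPS, higher than control on every array, and 0.32 ± 0.23 under 6-MP (adjusted p = 0.155 and 0.689). Fcer1g, the signalling chain of Fc receptors, had 0.18 ± 0.30 with LPS (adjusted p = 0.943) and 0.73 ± 0.30 under 6-MP (adjusted p = 0.388), where it was 1.13 and passed without LPS + 6-MP replicate 1 (adjusted p = 0.0339). Aif1, an actin-binding protein used to stain microglia, had -0.40 ± 0.35 with LPS and -0.23 ± 0.35 under 6-MP. The integrin Itgam had 0.04 ± 0.38 with LPS and -0.49 ± 0.38 under 6-MP. The adjusted p of both was at least 0.71.

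**Figure D3:**
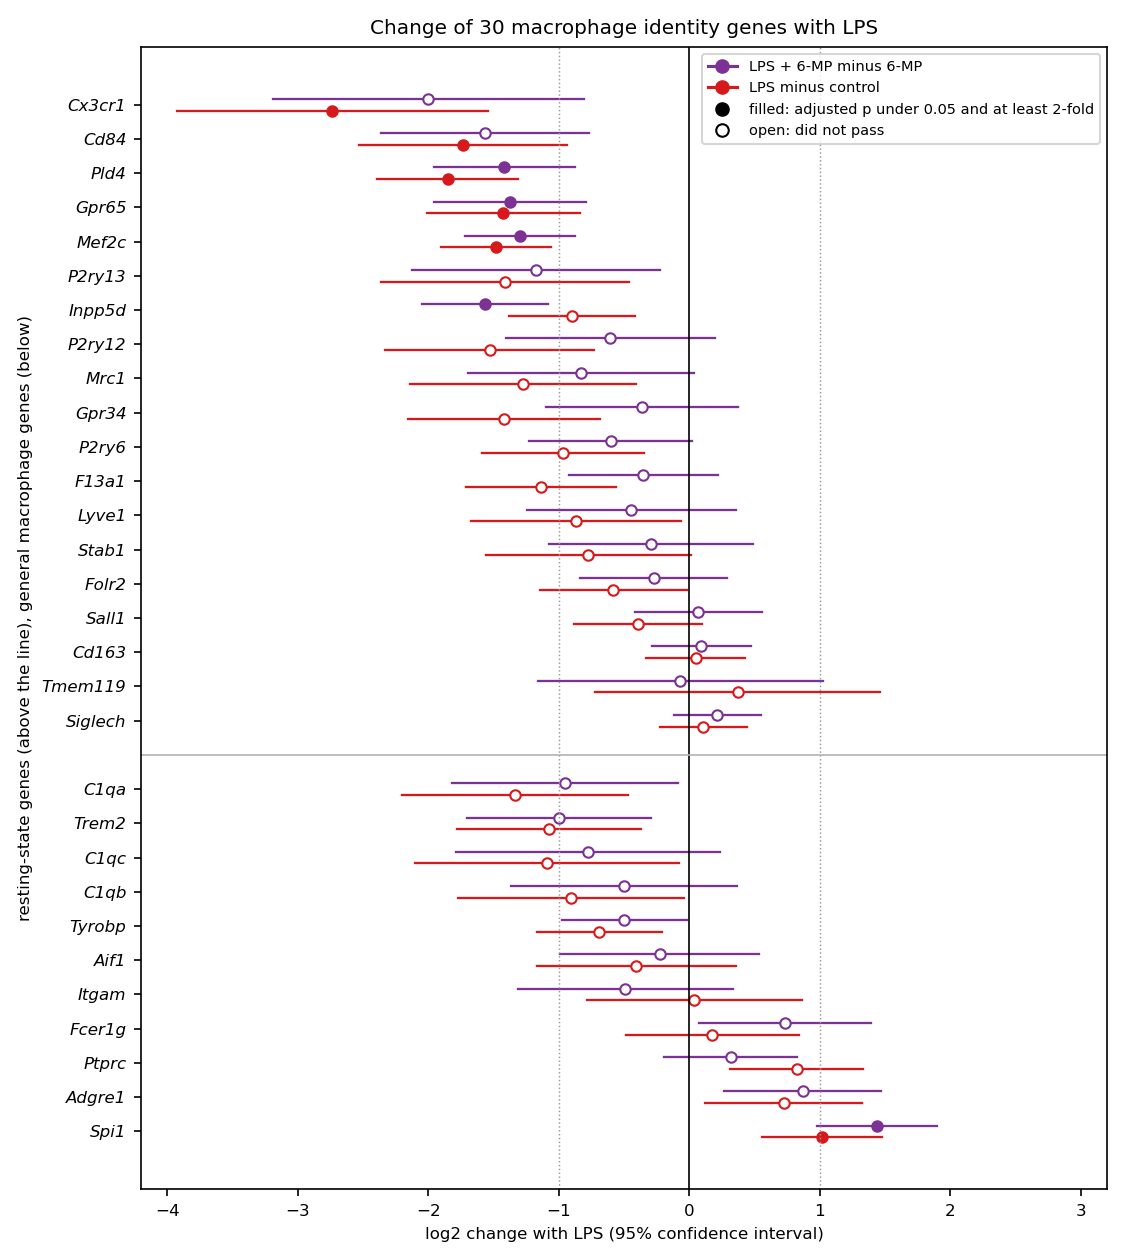
Log2 change with LPS for the 30 genes, with 95% confidence intervals from the limma fit, for LPS + 6-MP minus 6-MP (purple, upper of each pair) and LPS minus control (red, lower), sorted within each class by the averaged change. Filled points passed the test, dotted lines mark 2-fold, and the 11 filled points are 9 among the resting-state genes, all to the left, and 2 for Spi1, to the right.

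Set side by side, the resting-state genes had a median log2 change of -1.14 with LPS (16 of 19 below 0) and the general macrophage genes of -0.40 (6 of 11 below 0), beside -0.04 over all clusters. With 6-MP present the medians were nearer, -0.60 for the resting-state genes and -0.49 for the general genes, beside -0.03. The general medians moved with single arrays: for LPS alone the value was -0.08 without control replicate 1 and -0.17 without LPS replicate 1, and under 6-MP it was -0.26 without LPS + 6-MP replicate 1 and -0.31 without 6-MP replicate 2. Within the resting-state genes, the microglia type had a median of -1.42 with LPS and -1.17 with LPS under 6-MP, and the resident macrophage type of -0.82 with LPS and -0.32 under 6-MP. The order of the classes depends on the assignment of some genes. With P2ry6, Gpr65, Cd84 and Inpp5d counted as general genes, since other leukocytes carry them too, the resting-state and general medians were -1.14 and -0.90 for LPS alone. Under 6-MP they were -0.36 for the resting-state and -0.50 for the general genes, where the order turned.

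The same contrast was read on each array as the mean difference from control over the genes of a class. The resting-state genes averaged -0.98, -1.08 and -1.0 with LPS + 6-MP and -1.04, -1.11 and -0.99 with LPS, against -0.51, -0.13 and -0.24 with 6-MP and 0.42, -0.31 and -0.12 in control. The 6 arrays with LPS lay between -1.11 and -0.98, below the other 6. The general genes averaged -0.79, -0.22 and -0.05 with LPS + 6-MP, -0.22, -0.52 and -0.01 with LPS, -0.36, 0.04 and -0.44 with 6-MP, and 0.45, -0.26 and -0.19 in control. Here the arrays with and without LPS overlapped. The resting-state mean minus the general mean was -0.99 to -0.59 on 5 arrays with LPS and -0.19 on LPS + 6-MP replicate 1, an array that stands apart. On the 6 arrays without LPS it ran from -0.17 to 0.20. No test was made of these class means, since the genes were chosen with results of these data known.

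**Figure D4:**
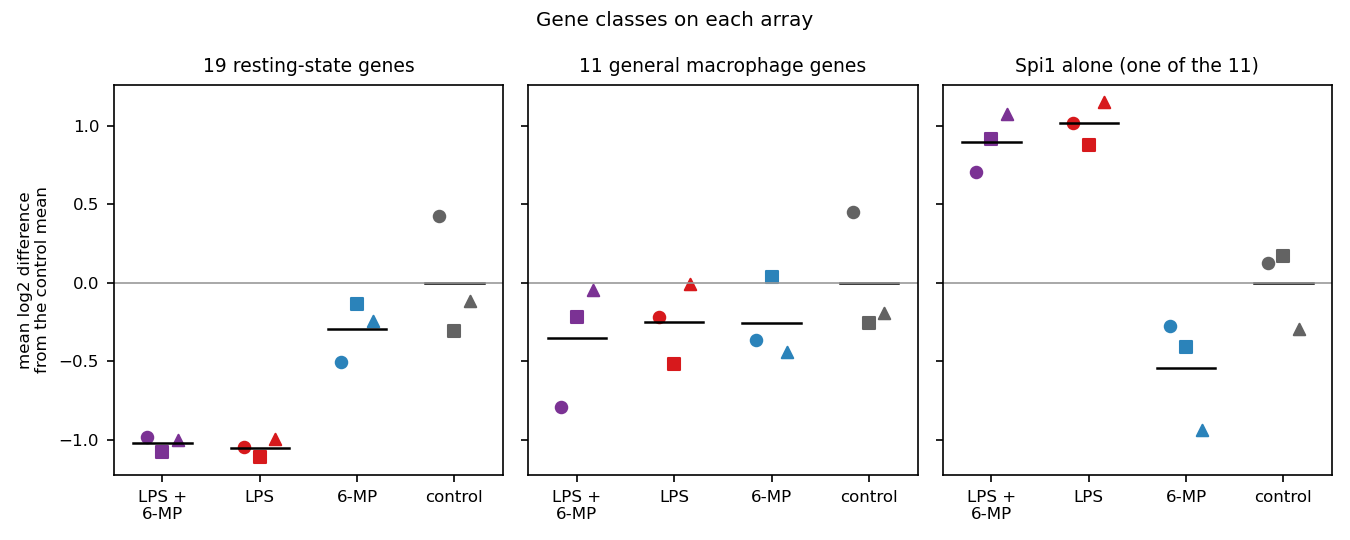
Mean log2 difference from the control mean over the 19 resting-state genes, over the 11 general macrophage genes and for Spi1 alone, on each array, with groups from left to right LPS + 6-MP, LPS, 6-MP and control; circle, square and triangle are replicates 1, 2 and 3 and the line is the mean of 3 arrays. The resting-state means of the 6 arrays with LPS lie between -1.11 and -0.98, the general means overlap between groups, and Spi1 lies at 0.71 to 1.15 with LPS and at 0.17 or below without it.

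Counted by arrays rather than by the fit, 14 of the 30 genes were lower on every LPS array than on every control array (11 resting-state, 3 general), where 8.18% of all clusters were, and 2 were higher (Ptprc and Spi1), where 6.88% were. Against 6-MP, 11 were lower on every LPS + 6-MP array, where 7.64% of all clusters were, and 3 higher (Siglech, Adgre1 and Spi1), where 7.13% were. On all 6 arrays with LPS against all 6 without it, 8 genes were lower, where 1.52% of all clusters were, all of them resting-state genes of the microglia type (Cx3cr1, P2ry12, Gpr34, Gpr65, Cd84, Mef2c, Pld4 and Inpp5d). Spi1 was the 1 gene higher there, where 2.39% of all clusters were.

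6-MP alone changed none of the 30 genes at the adjusted threshold, where 0% of all clusters were called, and none at an unadjusted p under 0.05 with 2-fold, where 0.063% were. At an unadjusted p under 0.05 alone, 2 of the 30 passed, P2ry12 (-0.81 ± 0.37) and Spi1 (-0.54 ± 0.21), where 2.13% of all clusters did. The interval for Mef2c ran from -0.51 to 0.34 and that for Pld4 from -0.96 to 0.12, so a 2-fold change of these by 6-MP lies outside it. For Cx3cr1 the interval of -1.68 to 0.70 does not bound the change so closely. Of the 30 genes 24 had negative differences, 15 of 19 resting-state (median -0.38) and 9 of 11 general (median -0.24), beside a median of 0.01 over all clusters. Control replicate 1, the highest control array for most of the genes, enters each of these differences.

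LPS + 6-MP against LPS gave no call among the 30 either (0% of all clusters at the adjusted threshold, and 0 of the 30 against 0.117% at the unadjusted threshold with 2-fold). Inpp5d was the 1 gene of 30 with an unadjusted p under 0.05 (-0.53 ± 0.22), where 3.6% of all clusters had one, a share near that of the 30. The resting-state genes had a median of 0.01 and the general genes of -0.05. The intervals for Mef2c (-0.32 to 0.53), Pld4 (-0.53 to 0.55) and Gpr65 (-0.60 to 0.57) exclude a 2-fold difference, and that for Cx3cr1 (-0.95 to 1.43) is wider and rests on dim values. The interaction of LPS and 6-MP passed for no gene (0% of all clusters). At an unadjusted p under 0.05, Gpr34 was the 1 gene of 30, with LPS changes that differed by 1.06 ± 0.48 (unadjusted p = 0.0474, adjusted p = 1, limma), where 1.95% of all clusters passed.

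Genes that control macrophages or share their pathways were read from further lists. Csf1, the growth factor on which macrophages depend, averaged 16.43 with LPS + 6-MP and 16.52 with LPS, against 13.69 with 6-MP and 14.08 in control, and rose by 2.74 ± 0.26 under 6-MP and 2.44 ± 0.26 without it (adjusted p = 0.000106 and 0.000219, limma). Its receptor gene Csf1r, which is expressed by the macrophages themselves, had -0.18 ± 0.34 under 6-MP (adjusted p = 0.903) and -0.49 ± 0.34 without it (adjusted p = 0.788). Of the 18 growth factors, receptors and lineage factors measured, 2 rose with LPS alone, Csf1 and the transcription factor Cebpb (1.02 ± 0.23, adjusted p = 0.0492), 1 rose with LPS under 6-MP, and none fell. Averaged, Runx1, a transcription factor of blood cell development, was higher as well (1.22 ± 0.30, adjusted p = 0.0429). The list of macrophage activation genes had 15 of 18 genes higher in each LPS comparison and none lower, with medians of 3.38 under 6-MP and 3.24 without it. Of all clusters, 1.31% were called higher under 6-MP and 1.51% without it, and 0.131% and 0.0946% lower. Which cells of the mixed culture gave the rises was not tested. Il1b, a cytokine of activated macrophages, averaged 14.09 with LPS + 6-MP and 14.25 with LPS, against 6.72 with 6-MP and 6.18 in control, and Acod1, the enzyme that makes itaconate, averaged 15.04 with LPS + 6-MP and 15.31 with LPS, against 7.72 with 6-MP and 7.35 in control. Tnf, the cytokine gene, rose by 7.76 under 6-MP and 6.86 without it (adjusted p = 5.92e-06 and 1.01e-05), and Clec4e, a receptor for microbial glycolipids, rose by 5.96 under 6-MP and 6.40 without it (adjusted p = 0.00018 and 8.52e-05).

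In a further list of 14 resting-state genes none passed in either comparison (medians -0.46 under 6-MP and -0.35 without it). Of all clusters, 0.131% were called lower under 6-MP and 0.0946% without it. Averaged, Entpd1, an ectoenzyme that breaks down ATP, fell by 1.04 ± 0.23 (adjusted p = 0.0218, limma). Of 15 further general macrophage genes, Cybb, the catalytic subunit of the phagocyte oxidase, rose by 2.51 ± 0.35 under 6-MP and 2.80 ± 0.35 without it (adjusted p = 0.00211 and 0.000723), and Mertk, a receptor for the uptake of dead cells, was lower on average (-1.07 ± 0.24, adjusted p = 0.0253). The median of that list was -0.02 under 6-MP and -0.06 without it. Lyz2, the lysozyme gene of macrophages, had -0.39 ± 0.27 under 6-MP (adjusted p = 0.675) and -0.37 ± 0.27 without it (adjusted p = 0.817).

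Markers of other cells that could carry some of these genes were read as well. Of 9 monocyte and neutrophil genes, 7 mast cell genes, 8 lymphocyte genes, 11 enteric neuron genes and 9 smooth muscle genes, none passed in any LPS comparison. Of all clusters, 0.0946% to 0.221% were called lower there and 1.31% to 1.86% higher, so lists this short can hold none at those shares. In the lymphocyte list Cd4, a T cell coreceptor that some macrophages also carry, met the adjusted p but not the fold, with -0.91 ± 0.19 for LPS alone (adjusted p = 0.0268, limma) and -0.64 ± 0.13 averaged (adjusted p = 0.0172). The mean level of the monocyte and neutrophil list was 7.15 to 8.89 with LPS + 6-MP, 6.91 to 8.88 with LPS, 6.78 to 8.57 with 6-MP and 7.05 to 8.73 in control. For lymphocytes the mean level was at most 5.24 in any array and 2 of the 8 genes were above the dim level on average, as were 2 of the 7 mast cell genes. So were 6 of the 9 monocyte and neutrophil genes, 8 of the 11 endothelial genes, 5 of the 8 glia genes and all neuron and smooth muscle genes. The mast cell genes not above the dim level averaged 3.85 to 5.63, so Kit and Hdc, named next, do not stand for that list. The 2 genes with the highest mean in each list averaged, over all 12 arrays, 14.81 (Plac8) and 9.47 (Ngp) for monocytes and neutrophils, 8.70 (Kit) and 6.51 (Hdc) for mast cells, 7.54 (Cd4) and 5.79 (Cd8a) for lymphocytes, and 8.91 (Flt1) and 7.61 (Kdr) for endothelium. For cells of the gut wall these were 13.91 (Stmn2) and 11.56 (Chrna3) for neurons, 9.62 (Erbb3) and 9.58 (Fabp7) for glia, and 18.05 (Acta2) and 16.69 (Actg2) for smooth muscle. Among 11 endothelial genes Flt1, a receptor for vascular growth factors that monocytes also carry, rose (2.39 ± 0.21 averaged, adjusted p = 2.19e-05, limma). Among 8 enteric glia genes Fabp7 and Cdh19 fell with LPS under 6-MP (-1.69 ± 0.38 and -1.12 ± 0.24, adjusted p = 0.0436 and 0.0382), on the same arrays as the resting-state genes. With LPS alone they had -1.34 ± 0.38 and -0.98 ± 0.24 (adjusted p = 0.146 and 0.0739, limma) and did not pass. Averaged, both were lower (-1.51 ± 0.27 and -1.05 ± 0.17, adjusted p = 0.00489 and 0.00286). The part of these other cells in the results above was not tested.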

How the data were processed

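RNA of 12 ENS primary cultures was hybridised to Clariom S arrays. The log2 values were deposited by the authors, 1 per transcript cluster and array, from the Transcriptome Analysis Console; their normalization and genome build are not given in the sources used here. All 22206 clusters were tested without a filter after removal of 6640 control entries. The platform table gives 1 symbol to 19572 clusters. Each of the 30 genes has a single cluster.

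The fit was made with limma 3.58.1 (R 4.3.3), its functions lmFit, contrasts.fit and eBayes applied to the 4 groups (residual df 8, prior df 4.25), with Benjamini-Hochberg adjustment over every cluster. Calls needed an adjusted p under 0.05 and 2-fold. An exact permutation test of 3 arrays against 3 cannot go below 0.1. Errors of changes are standard errors. For arrays, their number limits the precision. The replicate numbers did not pair the arrays (same number closest in 8 of 36 cases) and were used only as an alternative block. All 30 genes are named. Of other lists, the text names the genes called in either single LPS comparison, up to 4 per list by the averaged change, and, for other cell types, the 2 genes with the highest mean; Csf1r, Runx1, Entpd1, Mertk and Lyz2 were chosen after their values were seen. Other normalizations, priors, thresholds, classes and samples were tried. The genes, their classes, the lists and the leaving out of 4 arrays were chosen with earlier results of these data known.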

Additional observations from a re-analysis of the deposited data

How the results depend on the processing

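Each result was recomputed with other normalizations, priors, thresholds and samples; a fit with 2 components of the residuals was chosen after seeing the data. For LPS minus control, 5 genes were lower, 13 at an unadjusted p with 2-fold, 10 by a t-test unadjusted and 0 by it adjusted (the methods name it for comparisons of 2 groups, not for the arrays), 11 with 2 components of the residuals, and 2 to 6 with 1 array left out (2 without control replicate 1). The genes added by the 2 components were not all resting-state genes. They were P2ry12, Gpr34, Mrc1 and F13a1 and the general genes C1qa (adjusted p = 0.00162, limma) and C1qc (0.00759). At an unadjusted p the general genes C1qa, C1qc and Trem2 were among those added. The 1 gene higher (Spi1) became 0 with the replicate block, with that t-test adjusted, without the 4 arrays that stand apart and with some single arrays left out (0 to 1). For LPS + 6-MP minus 6-MP, 4 genes were lower, 2 in a fit to the compared groups only, 7 at an unadjusted p, 0 by the t-test adjusted, and 2 to 5 with 1 array left out, and the 1 higher became 0 by that t-test and 1 to 2 with 1 array left out. Averaged, 10 were lower, 7 with the replicate block and 6 to 11 with 1 array left out, and the 1 higher became 2 with no limit on the fold and without the 4 arrays. The interaction had 0, and 1 at an unadjusted p. The cause was not tested. The replicate block ended the calls of Cd84 and Spi1 for LPS minus control and of P2ry12, P2ry13 and C1qa averaged, and added F13a1 for LPS minus control.

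The resting-state median for LPS minus control (-1.14) was -1.36 without the 4 arrays and -1.49 to -0.95 with 1 array left out. With 1 array left out the general median was -0.57 to -0.08 for LPS minus control, -0.62 to -0.26 for LPS + 6-MP minus 6-MP and -0.51 to -0.15 averaged. With 4 genes counted as general, the general medians were -0.90 for LPS minus control and -0.70 averaged (against -0.40 and -0.32), and the resting-state median for LPS + 6-MP minus 6-MP was -0.36 (against -0.60). No called change reversed. The other cluster of a gene could not be tried, since each gene has 1. Signal near the dim level limits Cx3cr1, P2ry13, Sall1 and Cd163 to bounds or no call.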
